A study of Homo sapiens with 5 samples.

Results

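The pannexin and connexin genes PANX1, PANX2, GJA1, GJC1, GJB2 and GJA5 were examined in RPE-1 cells after FAM53C knock-down. These 6 genes, found by symbol among the 64252 genes counted, were chosen because PANX1 was already known to be much lower in the knock-down libraries. The comparison of siFAM53C with siCtrl thus served to choose them, and its values are given for them as a description without a test. RPE-1 is an immortalized line of human retinal pigment epithelial cells. All cells were collected 48 hr after transfection of siRNA at 5 µM with Lipofectamine RNAiMAX. The siCtrl group (genotype WT, 3 libraries) received ON-TARGET Control #1, and the siFAM53C group (genotype FAM53C KD, 2 libraries) received a pool of ON-TARGETplus siRNAs against FAM53C. The comparison asks which transcripts differ once FAM53C, studied for its part in the G1/S transition, is depleted. All cells are of 1 line, the knock-down was made with a pool rather than single siRNAs, and the labels do not say whether the libraries came from separate cultures, so the spread between them may be technical.

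Connexins form gap junctions: hexamers in the membranes of adjoining cells dock into channels through which ions and small metabolites pass. Pannexins have a like topology but do not, as a rule, join cells. They form large-pore channels to the outside, and PANX1 is best known as a release path for ATP. In the retinal pigment epithelium, GJA1 (Cx43) couples neighbouring cells, and ATP outside the cell signals through purinergic receptors.

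Libraries held 19260124 to 25615415 counts on genes, and levels are given as CPM, a gene's count per 1000000 counts after TMM scaling between libraries. FAM53C itself was at 59.4 ± 1.67 CPM (SD, n = 3) in siCtrl and 18.2 ± 5.73 CPM (SD, n = 2) in siFAM53C, so the targeted transcript was lower in both libraries so labelled. On the first principal component, siCtrl replicate 3 and siFAM53C replicate 2 had scores of 33.7 and 44.9, siCtrl replicates 1 and 2 of -31.5 and -47.4, and siFAM53C replicate 1 lay between them at 0.26. Values within each side of this split are given beside the results, with siFAM53C replicate 1 set against siCtrl replicates 1 and 2, although it stood apart from both sides. The libraries of the other side, siCtrl replicate 3 and siFAM53C replicate 2, both carry the number 3 in their column names. Markers of mature pigment epithelium were mostly absent, with RPE65 and TTR at 0 counts in all libraries, whereas MITF was present at 40.0 CPM in siCtrl. The summed level of the 8 pigment epithelium markers was 36.8 to 51.3 CPM in siCtrl and 36.5 to 47.1 CPM in siFAM53C. KRT8 and KRT18 were abundant, while the epithelial adhesion genes EPCAM and CDH1 had at most 4 counts in any library. The 5 epithelial markers summed to 384 to 467 CPM in siCtrl and 500.2 to 502 CPM in siFAM53C. KRT8 was above every siCtrl library in both siFAM53C libraries, as were 16.7% of all tested genes, but was not called (log2 fold change 0.32, SE 0.12). For KRT18 the groups overlapped (0.084, SE 0.12), and KRT19, EPCAM and CDH1 were not tested. The 5 mesenchymal markers, led by VIM and FN1, summed to 8528 to 11546 CPM in siCtrl and 8960 to 11001 CPM in siFAM53C. Of the mesenchymal markers, COL1A1 was called higher, at 17.6 ± 1.53 CPM (SD, n = 3) in siCtrl and 29.3 ± 0.165 CPM (SD, n = 2) in siFAM53C (log2 fold change 0.74, SE 0.14, edgeR adjusted p = 0.0310). Of all tested genes, 0.489% were called higher. VIM (-0.14, SE 0.14), THY1 (-0.22, SE 0.11) and FN1 (0.13, SE 0.21) were not called, and COL1A2 had too few counts to be tested. The median log2 fold change of the tested mesenchymal markers was -0.0027. The 4 endothelial and blood markers summed to at most 1.27 CPM, with CDH5 at 0.

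PANX1 was far lower in siFAM53C than in siCtrl. The gene (ENSG00000110218) lies on chromosome 11 of GRCh38 from 94128841 to 94181968 on the plus strand, and none of its exon bases is shared with another annotated gene. It had 941, 743 and 714 counts in siCtrl replicates 1 to 3, and 111 and 109 counts in siFAM53C replicates 1 and 2. Scaled for depth, these are 39.9, 38.9 and 37.4 CPM against 4.20 and 4.63 CPM. The libraries within each group lay close together, and the groups were far from overlapping. The mean fell from 38.7 ± 1.27 (SD, n = 3) to 4.41 ± 0.305 CPM (SD, n = 2), or to 11.4% of the siCtrl mean, a log2 fold change of -3.13 (SE 0.15). Taken separately, the sides of the split gave -3.20 and -2.99. In RNA from whole cultures, less PANX1 RNA per cell and fewer cells that carry it cannot be told apart. Among the 15341 genes with enough counts to be tested, PANX1 ranked 22 from the lowest log2 fold change, and among the 9301 with a mean of at least 10 CPM it ranked 5.

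The other pannexin moved less. PANX2 (ENSG00000073150, chromosome 22, 50170731 to 50180295, plus strand), which is best known from the brain, had 604, 448 and 378 counts in siCtrl and 389 and 317 in siFAM53C. In CPM it was at 25.6, 23.4 and 19.8 in siCtrl and at 14.7 and 13.5 in siFAM53C, so both siFAM53C libraries lay below each siCtrl library. The log2 fold change was -0.71 (SE 0.17), and each side of the split gave -0.73 and -0.55. With the main settings it did not pass the threshold used for all genes.

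The connexins that were present did not move with the knock-down beyond the spread between libraries. GJA1 (ENSG00000152661, chromosome 6, 121435595 to 121449727, plus strand) encodes Cx43, the most widespread connexin. It had 6204, 5296 and 7078 counts in siCtrl and 7897 and 9912 in siFAM53C, or 263, 277 and 371 CPM against 298 and 421 CPM. The groups overlapped, and the highest library of each group was the one on the far side of the library split (siCtrl replicate 3 and siFAM53C replicate 2). The log2 fold change of GJA1 was 0.24 (SE 0.20), with 0.14 and 0.18 within the sides, and -0.027 without siFAM53C replicate 2. GJC1 (ENSG00000182963, chromosome 17, 44798448 to 44830816, minus strand) encodes Cx45. It had 3396, 2796 and 3227 counts in siCtrl and 3848 and 4101 in siFAM53C, which gives 144, 146 and 169 CPM against 145 and 174 CPM. Here, too, the groups overlapped and the same pair of libraries was highest. The log2 fold change of GJC1 was 0.061 (SE 0.13), with 0.0021 and 0.042 within the sides, and -0.077 without siFAM53C replicate 2.

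**Figure D1:**
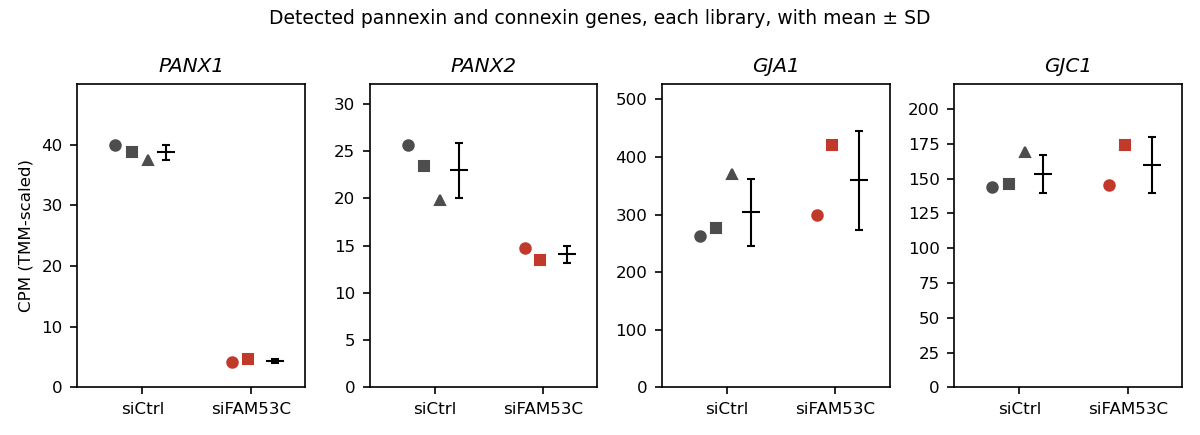
CPM after TMM scaling of PANX1, PANX2, GJA1 and GJC1 in each library (y axes from 0, circles replicate 1, squares replicate 2, triangle replicate 3), with the mean ± SD of each group beside the points. PANX1 sits at 37.4 to 39.9 CPM in siCtrl and at 4.20 and 4.63 CPM in siFAM53C, PANX2 falls less, and the groups overlap for GJA1 and GJC1.

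GJB2 (Cx26, ENSG00000165474, chromosome 13, 20187463 to 20192938) and GJA5 (Cx40, ENSG00000265107, chromosome 1, 147756199 to 147773362), connexins of the cochlea and of the heart's conduction tissue and arteries, respectively, were listed at 0 in all 5 libraries. A count of 0 allows up to 3 counts, which is 0.113 to 0.157 CPM depending on the library, and this limit covers counting error only. GJA5 overlaps a gene of the opposite strand over 668 exon bases. Thus 4 of the 6 genes passed the filter on low counts. Of the 4, the edgeR quasi-likelihood test called 1 lower (PANX1) and 0 higher at a Benjamini-Hochberg adjusted p under 0.05, where 3.47% of all tested genes were called lower, 0.489% higher and 3.96% either way. Without adjustment it was 2 lower (PANX1 and PANX2) and 0 higher, against 1607 and 1014 of all 15341 tested genes. DESeq2 called the same 2 genes with adjustment, against 890 lower and 257 higher of 12749 over all genes. Both pannexins had every siFAM53C library below every siCtrl library, a pattern shown by 18.8% of all tested genes. Since this contrast chose the genes, nothing is read from these counts.

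**Figure D2:**
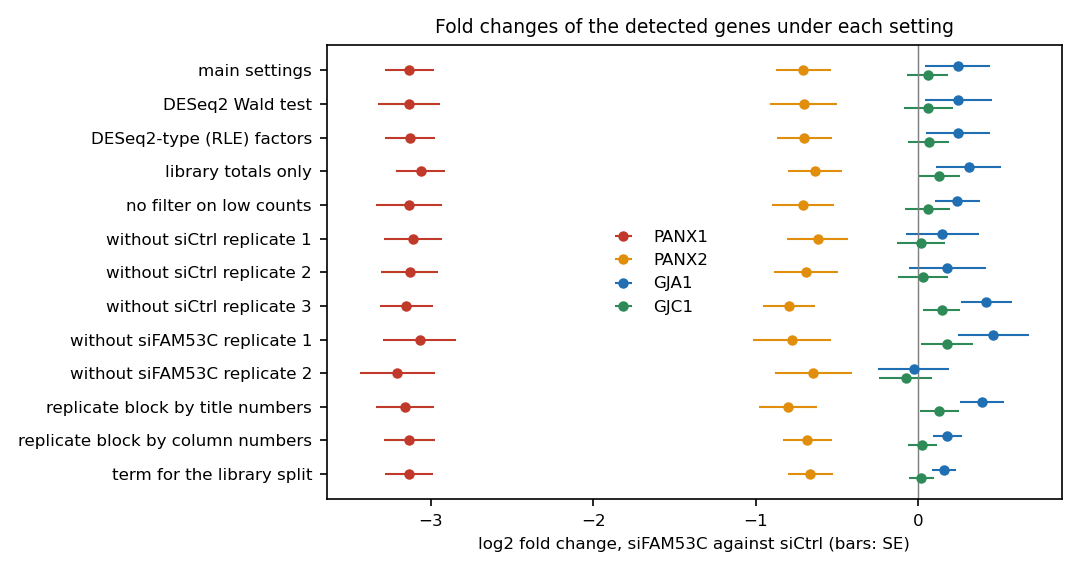
Log2 fold change (x axis, siFAM53C against siCtrl, bars SE) of PANX1, PANX2, GJA1 and GJC1 with the main settings and with each of 12 alternatives (rows). PANX1 stays between -3.21 and -3.06 and PANX2 between -0.80 and -0.62, while GJA1 and GJC1 lie near 0 and drop below it only without siFAM53C replicate 2.

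The order of the genes by level changed with the knock-down. Per kilobase of annotated exon, GJA1 was the highest in siCtrl, at 77.6 to 109 CPM per kb. GJC1 followed at 16.5 to 19.4, PANX1 at 13.1 to 14 and PANX2 at 6.38 to 8.26 CPM per kb, and no neighbours in this order overlapped between siCtrl libraries. In siFAM53C the levels were 87.9 and 124 CPM per kb for GJA1, 16.7 and 20.0 for GJC1, 4.74 and 4.34 for PANX2, and 1.47 and 1.62 for PANX1. PANX1 had 1.70, 1.80 and 2.06 times the level of PANX2 in the siCtrl libraries and 0.310 and 0.374 times in the siFAM53C libraries, so PANX2 was the more abundant pannexin transcript in the latter. Of the summed level of the 4 genes per kb, PANX1 made up 8.85% to 12% in siCtrl and 1.33% and 1.08% in siFAM53C. The share of GJA1 was 66.7% to 73.7% in siCtrl and 79.3% and 82.7% in siFAM53C.

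A short sequence is repeated in the 3′ UTR of PANX1. An earlier analysis of these same counts had picked the heptamer GACAAGA, out of all heptamers, as the one whose presence in a 3′ UTR went most with lower expression, so its presence in genes chosen for a low value is not independent evidence. The longest annotated 3′ UTR of PANX1 is 1099 bases long and holds the heptamer 3 times, on chromosome 11 at 94181137 to 94181143, 94181209 to 94181215 and 94181329 to 94181335 (GRCh38, plus strand). The windows of 30 bases around these copies are shown to give the bases next to the heptamer. Apart from the heptamer and its reverse complement, the 3′ UTR sequences of these genes were not compared. The heptamer is in capitals:
PANX1, bases 268 to 274 of the 3′ UTR: aaaagcagaaaGACAAGAacaattagtcaa
PANX1, bases 340 to 346 of the 3′ UTR: acccgtggtgaGACAAGAcccagagctact
PANX1, bases 460 to 466 of the 3′ UTR: aaagactgttaGACAAGAaaagcattcact
The heptamer is followed by A in 2 of the 3 copies. PANX2, GJA1 and GJC1 had 0 copies in 3′ UTRs of 1032, 1731 and 6179 bases, GJA5 also had 0, and GJB2, listed at 0 in all libraries, had 1. On the opposite strand (TCTTGTC), PANX1, PANX2 and GJA1 had 0 copies and GJC1 had 2.

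Among the tested genes with an annotated 3′ UTR, FAM53C left out, 11.6% of 12074 held at least 1 copy of the heptamer and 14.8% held its reverse complement. The median log2 fold change was 0.020 over the 10675 genes without a copy, -0.17 over 1236 genes with 1, -0.25 over 138 genes with 2 and -0.41 over 25 genes with 3 or more. Genes called lower made up 2.92%, 13.8%, 22.5% and 36.0% of these classes. The heptamer was picked from these same counts for going with lower expression. Lower values in genes that hold it thus follow from that choice and are not independent evidence. The values by class and by the next base only describe these counts. The median 3′ UTR length also differed between the classes, from 1386 bases without a copy to 3196, 5332 and 4874 bases with 1, 2 and 3 or more. PANX1 had both the shortest 3′ UTR and the lowest fold change of the 25 genes with 3 or more copies. Of the 1447 tested genes whose 3′ UTR was within 20% of the length of that of PANX1, 5.39% held the heptamer, 8.85% its reverse complement, and 2 genes (0.138%) held it 3 or more times. Beside PANX1 this was CEP19, a centrosomal protein gene singled out after its value was seen, at 2.91 ± 0.351 CPM (SD, n = 3) in siCtrl and 0.517 ± 0.0708 CPM (SD, n = 2) in siFAM53C. Within this range of lengths, the median log2 fold change was 0.021 without a copy, -0.23 over 72 genes with 1 and 0.23 over 4 genes with 2. ENTPD1, one of the ATP breakdown genes listed below, also holds 3 copies, in a 3′ UTR of 10883 bases. Its log2 fold change was -0.17 (SE 0.15), with no call. Among genes with 1 copy, those in which A follows the heptamer (GACAAGAA, 369 genes) had a median log2 fold change of -0.36, and the other 867 a median of -0.11. FAM53C itself also holds the heptamer once, on chromosome 5 at 138347138 to 138347144:
FAM53C, bases 179 to 185 of the 3′ UTR: agactggccggGACAAGAtaaacggagctg
The sequences of the siRNA pool are not given in the sources used here, and the part of the heptamer in the PANX1 value was not tested.

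**Figure D3:**
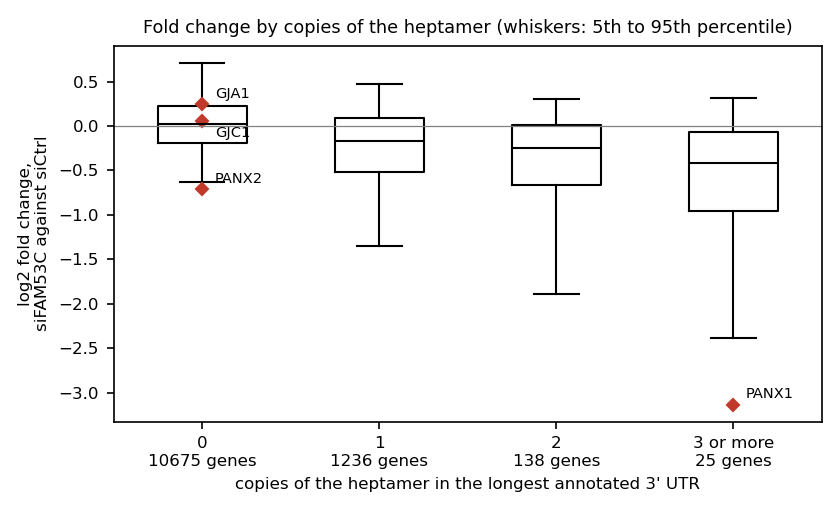
Log2 fold change (siFAM53C against siCtrl) of tested genes by the copies of the heptamer in the longest annotated 3′ UTR, as boxes (median and quartiles, whiskers from the 5th to the 95th percentile). Diamonds mark PANX1, PANX2, GJA1 and GJC1. The medians run from 0.020 with 0 copies to -0.41 with 3 or more, and PANX1 lies at -3.13. The heptamer was picked from these same counts for going with lower expression.

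The 5 genes whose levels over the 5 libraries were nearest to those of PANX1 were LSM5, ITGB8, MAPK6, ADGRL2 and GTF3A. Nearness was the Euclidean distance between log2 CPM profiles centred on the siCtrl mean, over the 9300 other genes with a mean of at least 10 CPM, and the distances ran from 0.52 for LSM5 to 1.01 for GTF3A. LSM5 encodes a subunit of the LSM ring that binds U6 RNA, ITGB8 an integrin chain that activates latent TGF-β, MAPK6 the kinase ERK3, ADGRL2 a latrophilin receptor and GTF3A the 5S rRNA transcription factor TFIIIA. LSM5 was at 45.1 ± 3.75 CPM (SD, n = 3) in siCtrl and 6.52 ± 0.505 CPM (SD, n = 2) in siFAM53C. The log2 fold changes ran from -2.79 (LSM5) to -2.44 (GTF3A), and none reached that of PANX1. In the 3′ UTR, ITGB8 has 2 copies of the heptamer, LSM5, MAPK6 and ADGRL2 have 1 each, and GTF3A has 0. Of all tested genes with a 3′ UTR, 11.6% held at least 1 copy. The heptamer was picked from these same counts for going with lower expression. Copies in genes picked for falling like PANX1 are thus not independent evidence. The nearness of the 5 genes to PANX1 also follows from how they were picked and rests on 5 libraries.

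**Figure D4:**
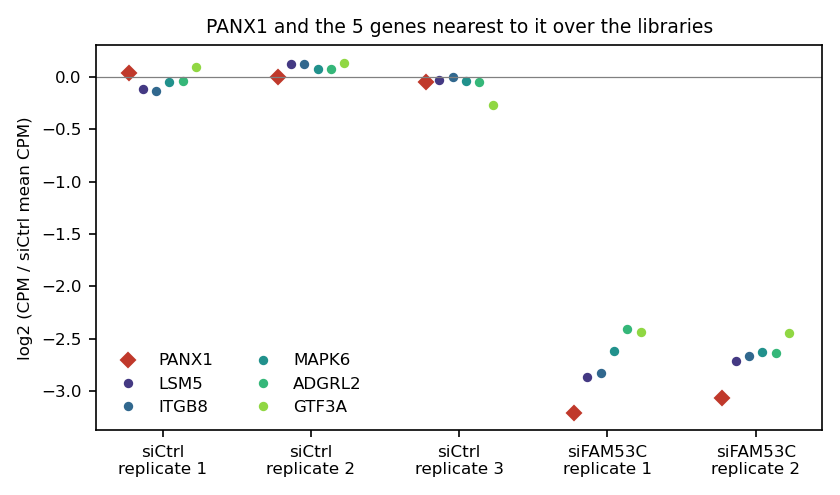
CPM of PANX1 (diamonds) and of the 5 genes with the nearest profiles (circles) in each library, as log2 of the ratio to the siCtrl mean of the same gene. All 6 genes lie near 0 in the 3 siCtrl libraries and below -2.4 in both siFAM53C libraries, with PANX1 the lowest of them.

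The genes around PANX1 on chromosome 11 did not share its size of change. The nearest tested protein-coding genes were MED17 (314 kb away) and TAF1D (344 kb) on one side and MRE11 (234 kb) and ANKRD49 (312 kb) on the other. The log2 fold changes were -0.043 for TAF1D (SE 0.20), -0.085 for MRE11 (SE 0.19) and -0.032 for ANKRD49 (SE 0.24), each smaller than its standard error. MED17, a Mediator subunit, fell from 52.7 ± 2.27 (SD, n = 3) to 33.8 ± 0.983 CPM (SD, n = 2), or by 0.64 on the log2 scale (SE 0.11, edgeR adjusted p = 0.0209). Its 3′ UTR holds the heptamer once, and 2156 of its exon bases also belong to other genes of its strand. Its call was lost without siCtrl replicate 1 or 2 and without either siFAM53C library (log2 fold change from -0.68 to -0.61).

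The remaining family members described here were scarcely expressed. Of the other 18 pannexin and connexin genes, 11 had 0 counts in all libraries, PANX3 and GJB1 among them. GJA3 and GJD3, further connexin genes, had at most 19 and 20 counts in a library and were not tested.

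Partners of connexins were all expressed, and most did not pass the test with the main settings. Of 12 genes for anchoring, trafficking, phosphorylation and turnover, 1 was lower (CTNNB1) and 1 higher (SRC), where 3.47% and 0.489% of all tested genes were. Their median log2 fold change was 0.032, and that of all tested genes 0.016. Without adjustment, 5 were lower and 2 higher, against 1607 and 1014 of all 15341 tested genes. DESeq2 called 4 lower (CNST, NEDD4, MAPRE1 and CTNNB1) and 2 higher (SRC and CAV1), against 890 and 257 of 12749 over all genes. CTNNB1 (β-catenin), which links cadherins to actin and carries Wnt signals, fell from 342 ± 30.2 (SD, n = 3) to 195 ± 5.86 CPM (SD, n = 2), or by 0.81 on the log2 scale (SE 0.12, edgeR adjusted p = 0.0115). SRC, a tyrosine kinase that phosphorylates Cx43, rose from 47.0 ± 1.14 (SD, n = 3) to 65.8 ± 0.380 CPM (SD, n = 2), or by 0.49 on the log2 scale (SE 0.10, edgeR adjusted p = 0.0416). Both siFAM53C libraries were above each siCtrl library for SRC, which was so for 16.7% of all tested genes. The calls of CTNNB1 and SRC were lost without siCtrl replicate 1 or 2 and without either siFAM53C library, where the log2 fold change was -0.84 to -0.75 for CTNNB1 and 0.48 to 0.51 for SRC. The highest levels per kb in siCtrl were those of CAV1, EZR and MAPRE1. CAV1, the caveolar scaffold, had a log2 fold change of 0.36 (SE 0.11), EZR (ezrin) of 0.18 (SE 0.18) and MAPRE1, the microtubule end-binding protein EB1, of -0.49 (SE 0.11), none past the threshold with the main settings. MAPRE1 was called lower under 6 of the 12 alternatives and CAV1 higher under 3. MAPRE1 has 1 copy of the heptamer in its 3′ UTR and CTNNB1 has 0. TJP1 (ZO-1), the scaffold that Cx43 binds, had a log2 fold change of 0.041 (SE 0.23).

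Of 7 other large-pore channel genes tested, 1 was called lower and 0 higher, where 3.47% and 0.489% of all tested genes were. Without adjustment, 2 were lower and 0 higher, against 1607 and 1014 of all 15341 tested genes. The log2 fold change was below 0 for 6 of the 7, and for 7391 of all tested genes. LRRC8A, the obligatory subunit of the volume-regulated anion channel, was the most abundant of them per kb, at 168 ± 10.9 CPM (SD, n = 3) in siCtrl and 167 ± 7.39 CPM (SD, n = 2) in siFAM53C. LRRC8B, one of its partner subunits, fell from 6.61 ± 0.711 (SD, n = 3) to 2.41 ± 0.254 CPM (SD, n = 2), which is -1.46 on the log2 scale (SE 0.27, edgeR adjusted p = 0.0278). This call, too, was lost without siCtrl replicate 1 or 2 and without either siFAM53C library (-1.57 to -1.36). LRRC8B overlaps genes of the opposite strand over 918 exon bases and genes of its own strand over 63, and its 3′ UTR holds 0 copies of the heptamer. LRRC8C (-0.34, SE 0.13) and LRRC8D (-0.080, SE 0.17) did not pass the threshold with the main settings, and LRRC8C did so under 1 alternative, the term for the split. The median log2 fold change of the 7 genes was -0.16.

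Receptors and enzymes for extracellular nucleotides showed no call with the main settings. Over all 15341 tested genes, 3.47% were called lower and 0.489% higher, and 1607 were lower and 1014 higher without adjustment. Of 15 genes for ATP and UTP receptors, 6 were tested, with a median log2 fold change of -0.28, and 0 were called by edgeR (without adjustment, 1 higher and 0 lower) or by DESeq2. These receptors were low: P2RX7, often linked with PANX1 in ATP-driven pore opening, had at most 1 count in a library, and P2RY11, P2RX5 and P2RX6, the highest per kb, had a mean of at most 2.04 CPM per kb in siCtrl. The log2 fold change was 0.25 for P2RY11 (SE 0.41), which overlaps genes of its own strand over 1196 exon bases, -0.20 for P2RX5 (SE 0.37) and 0.82 for P2RX6 (SE 0.33). For 11 genes of ATP breakdown and adenosine sensing, 5 were tested, with a median log2 fold change of -0.33, and 0 were called by edgeR (without adjustment, 2 lower and 0 higher) or by DESeq2. NT5E (CD73), which makes adenosine outside the cell, was the highest of all these genes per kb, at 1377 ± 114 CPM (SD, n = 3) in siCtrl and 1095 ± 70.4 CPM (SD, n = 2) in siFAM53C (log2 fold change -0.33, SE 0.13). Both siFAM53C libraries were below each siCtrl library for NT5E, which was so for 18.8% of all tested genes. The adenosine receptor gene ADORA2B had a log2 fold change of -0.65 (SE 0.38), which ran from -1.0 without siFAM53C replicate 1 to -0.37 without siFAM53C replicate 2, and the ATP-cleaving ENPP1 had one of -0.38 (SE 0.15). ADORA2B was called lower with either replicate block (-0.94 by title numbers, -0.41 by column numbers) and once the library split was a term of the fit (-0.47). NT5E and ENPP1 were called lower with the block by column numbers (-0.36 and -0.42) and with that term (-0.36 and -0.43), and P2RX6 was called higher with that term (0.89).

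**Figure D5:**
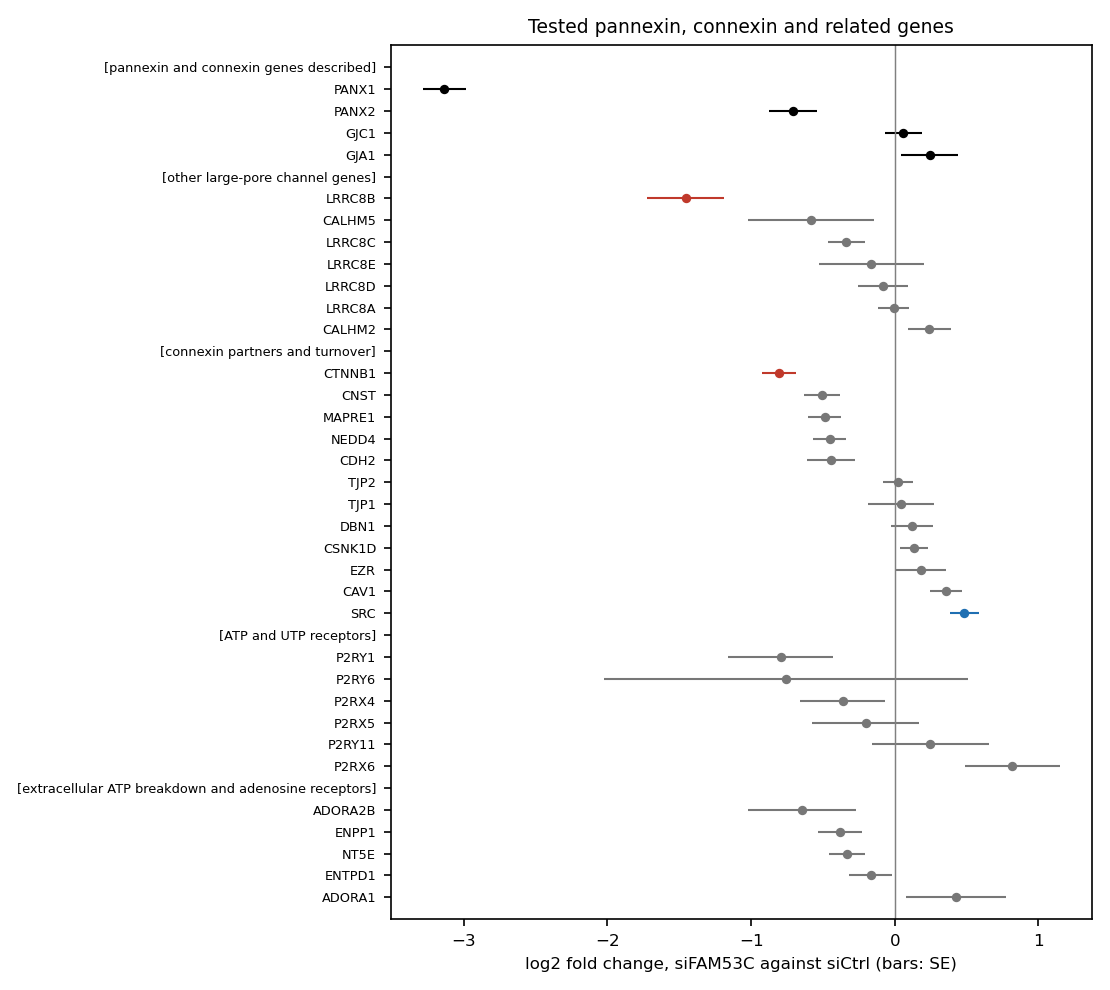
Log2 fold change (siFAM53C against siCtrl, x axis, bars SE) of the tested pannexin and connexin genes (black) and of the tested genes of 4 related groups, with red for genes called lower, blue for called higher and grey for no call. LRRC8B at -1.46 is the lowest after PANX1 at -3.13, and the other genes lie between -1 and 1.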

How the data were processed

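Raw counts per gene, deposited without normalization, were used for 3 siCtrl and 2 siFAM53C RPE-1 libraries. Per the labels and the study's methods, the authors removed adapters with CutAdapt 2.10, mapped the read pairs to hg38 by HISAT2 with a reverse-strand setting, and obtained counts from featureCounts. The annotation release and the strand setting of the counting are not given in the sources used here. Groups came from the sample titles.
Positions, exon lengths and 3′ UTRs were taken from GENCODE release 44 (GRCh38), matched to 56105 of the 64252 identifiers, which may differ from the annotation the authors used. The test was the robust quasi-likelihood fit of edgeR 4.0.16 (R 4.3.3) with condition as its only term, after TMM scaling and filterByExpr with a minimum count of 10 and a minimum total of 15, and with Benjamini-Hochberg adjustment over all 15341 genes tested, with a threshold of 0.05. Log2 CPM used a prior count of 2, and CPM per kb is CPM over merged exon length. The fit was checked on simulated counts with 200 changed genes. Genes with few counts are measured with less precision.
The genes, the lists and the heptamer were chosen with earlier results of these data known. Named were the 6 genes, FAM53C, listed genes past the threshold or among the 3 highest per kb, and the 5 nearest profiles. The 2 nearest tested genes on each side of PANX1 were named too. TJP1, P2RX7, PANX3, GJB1, CEP19, ENTPD1, CNST and NEDD4 were examples chosen after their values were seen. Of the listed genes, ADORA3 had no matching identifier in the table. The alternatives were DESeq2 1.42.0, other size factors, no filter, each library left out, replicate blocks and a term for the library split. Some genes of the lists are not reported here.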

Additional observations from a re-analysis of the deposited data

How the results depend on the processing

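The log2 fold change of PANX1 ran from -3.21 to -3.06 over the 12 alternatives. The genes were chosen for the fall of PANX1 in these same libraries. The values of PANX1 and PANX2 thus only describe how they depend on the settings, and passing the threshold is not support. PANX2 passed the threshold with DESeq2 (-0.70), no filter (-0.71), a replicate block by title (-0.80) or column (-0.68) numbers and a term for the library split (-0.66), a term chosen after seeing the data, and its leave-one-out values ran from -0.79 to -0.62, passing only without siCtrl replicate 3. The leave-one-out values ran from -0.027 to 0.46 for GJA1 and from -0.077 to 0.18 for GJC1, below 0 only without siFAM53C replicate 2. Where a siFAM53C library is left out, the lone one is assumed to vary like the siCtrl libraries.
Over all genes, 533 were lower and 75 higher. These numbers were 890 and 257 with DESeq2, 961 and 375 with no filter, 856 and 355 with a replicate block by titles, 1350 and 642 by columns, and, for the split term, 1636 and 1037. With library totals alone, 121 were higher. Leaving out 1 library gave 157 to 886 lower and 6 to 414 higher. The share of calls that were lower was 87.7%, and 77.6% with DESeq2, 77.4% with totals, 71.9% with no filter, 70.7% and 67.8% with the blocks by titles and columns and 61.2% with the term. In the related lists together, 3 genes were lower and 1 higher. Lower genes numbered 6 with DESeq2, 7 with no filter, 6 and 10 with the replicate blocks and 11 with the term, higher genes 2 with DESeq2, 2 with the block by columns and 3 with the term, and leaving out 1 library gave 1 to 4 lower and 0 to 1 higher. What caused these differences was not tested.
Signs turned for genes near 0. LRRC8A was at 0.064 with totals and 0.014 with the term, LRRC8D at 0.064 and P2RY11 at -0.063 with the replicate block by titles and columns, respectively, TAF1D at 0.025 with totals and 0.16 with the block by titles, MRE11 at 0.13 with that block and ANKRD49 at 0.037 with totals. Leave-one-out values were -0.059 to 0.038 (LRRC8A), -0.21 to 0.069 (LRRC8D), -0.068 to 0.39 (EZR), -0.12 to 0.54 (P2RY11), -0.47 to 0.034 (P2RX5), -0.18 to 0.17 (TAF1D), -0.19 to 0.14 (MRE11) and -0.20 to 0.11 (ANKRD49). The siFAM53C library titled replicate 2 carries the number 3 in its column name, and the study's methods give duplicates where 3 siCtrl libraries were used here, so the block was fitted once by the title numbers and once by the column numbers. The libraries that share the number 3 in their column names are also those on the far side of the library split. The correlations of deviations were 0.17 and -0.28 by the titles and 0.17 and 0.37 by the column names. With only 2 siFAM53C libraries, these values cannot settle whether the libraries are paired.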
